A study of Mus musculus with 4 samples.

Results

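The respiratory chain is the set of protein complexes in the inner mitochondrial membrane that passes electrons from NADH and succinate to oxygen and uses the resulting proton gradient to make ATP. Complex I (NADH dehydrogenase, Nduf genes), complex II (succinate dehydrogenase, Sdh genes), complex III (the cytochrome bc1 complex, Uqcr genes) and complex IV (cytochrome c oxidase, Cox genes) carry the electrons, and complex V (ATP synthase, Atp5 genes) makes the ATP. Most of their subunits are encoded in the nucleus and are needed in nearly every cell, and a minority of complex IV subunits have variants restricted to muscle, testis or other tissues. Their promoters are known as targets of the transcription factors NRF1, GABP (an ETS family factor) and YY1.

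The accessibility of the promoters of these genes was examined in immortalized mouse embryonic fibroblasts (imMEFs) with and without HAT1, the acetyltransferase that acts on newly synthesized histone H4. ATAC-Seq libraries, in which the Tn5 transposase inserts adapters into open chromatin, came from HAT1+/+ lines (WT, n = 2) and HAT1-/- lines (KO, n = 2) on a C57bl6 background. All 4 lines were derived from mid-gestation embryos and immortalized with SV40 T antigen, so the controls carry that antigen too. Each library is a separate line, and differences between genotypes are therefore also differences between lines. In each value below, the order is WT replicate 1, WT replicate 2, KO replicate 1 and KO replicate 2, where the replicate numbers are names only.

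A member is a site of the table, that is, a merged ATAC-Seq peak, within 1 kb of a transcription start site (TSS) of a protein-coding autosomal gene whose symbol starts with Nduf, Uqcr or Atp5, is Sdha, Sdhb, Sdhc or Sdhd, or is a Cox4 to Cox8 subunit gene. There were 87 such sites among 82325 in the table. They lay at 79 of 90 autosomal genes of these names (GENCODE release M21, GRCm38, the assembly named mm10), and 8 genes had 2 sites each. The 3 X-linked genes of these names, Ndufa1, Ndufb11 and Cox7b, were left out by the rule. Complex I subunits had 34 sites at 31 of 36 genes, and the Ndufaf genes, which encode assembly factors of complex I and are given apart, had 9 sites at all 8 genes. Complex II had 4 sites at all 4 genes of these names, and complex III 9 sites at all 8. Complex IV had 14 sites at 12 of 17 genes and complex V 17 sites at 16 of 17 genes. Cyc1, a complex III gene of another name, is not a member by the rule.

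Promoter sequences of members are shown here as examples of the motifs described below. They run from 150 bases before to 30 bases after the RefSeq start (GRCm38.p6), 5′ to 3′ on the strand of the gene. Capitals mark exact matches, on either strand, to 6 motifs. The NRF1 motif is GCGC, then 1 base of any kind, then TGCGC. The ETS motif is CCGGAAG, the letters that GABP recognizes. The YY1 motif is AAGATGGCG, the letters that YY1 recognizes near many starts. The Sp/KLF motif is GGGCGG, also known as the GC box. The NF-Y motif is CCAAT, or the CCAAT box. The TATA motif is TATAAA, the letters of the TATA box. The 5 sequences that come first belong to the site with the most signal per kb of each complex, from complex I to complex V. Ndufv3 follows because its intronic site had the lowest log2 fold change of all members, although the printed promoter lies in the neighbouring site that holds the TSS. Ndufa11 and Ndufaf8 were chosen after the motif shares were seen, as the sites with the most signal per kb that have an NRF1 and a YY1 match in this window.
Ndufv1: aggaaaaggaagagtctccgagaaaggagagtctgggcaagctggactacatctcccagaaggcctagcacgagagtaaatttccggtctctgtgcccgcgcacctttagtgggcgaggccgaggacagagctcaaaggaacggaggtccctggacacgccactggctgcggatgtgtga
Sdhb: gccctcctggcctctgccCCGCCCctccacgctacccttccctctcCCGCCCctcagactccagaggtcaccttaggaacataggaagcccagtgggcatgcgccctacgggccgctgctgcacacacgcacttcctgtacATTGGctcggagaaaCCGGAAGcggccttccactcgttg
Uqcrh: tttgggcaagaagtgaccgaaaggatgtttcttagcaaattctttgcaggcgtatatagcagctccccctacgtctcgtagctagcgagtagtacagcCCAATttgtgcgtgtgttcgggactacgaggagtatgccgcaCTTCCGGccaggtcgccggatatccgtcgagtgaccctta
Cox8a: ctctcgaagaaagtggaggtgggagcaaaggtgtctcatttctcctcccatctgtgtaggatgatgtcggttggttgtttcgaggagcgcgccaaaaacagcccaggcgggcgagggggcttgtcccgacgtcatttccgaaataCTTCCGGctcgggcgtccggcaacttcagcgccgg
Atp5g1: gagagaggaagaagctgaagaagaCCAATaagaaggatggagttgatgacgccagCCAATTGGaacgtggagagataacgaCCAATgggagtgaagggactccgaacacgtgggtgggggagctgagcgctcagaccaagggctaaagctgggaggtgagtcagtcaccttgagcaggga
Ndufv3: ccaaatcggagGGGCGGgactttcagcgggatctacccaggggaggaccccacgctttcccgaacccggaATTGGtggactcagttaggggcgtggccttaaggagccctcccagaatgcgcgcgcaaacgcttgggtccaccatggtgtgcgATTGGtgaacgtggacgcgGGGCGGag
Ndufa11: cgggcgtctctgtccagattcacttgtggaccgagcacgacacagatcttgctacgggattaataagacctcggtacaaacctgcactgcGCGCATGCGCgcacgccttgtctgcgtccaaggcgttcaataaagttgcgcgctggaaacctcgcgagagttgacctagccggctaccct
Ndufaf8: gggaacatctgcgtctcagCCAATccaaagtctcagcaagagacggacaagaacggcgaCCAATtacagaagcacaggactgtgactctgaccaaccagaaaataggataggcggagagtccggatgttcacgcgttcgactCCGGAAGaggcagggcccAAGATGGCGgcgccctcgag
The windows are, in the same order, chr19:4012726-4012905 (minus strand), chr4:140961121-140961300 (plus strand), chr4:116075041-116075220 (minus strand), chr19:7217587-7217766 (minus strand), chr11:96075602-96075781 (minus strand), chr17:31519965-31520144 (plus strand), chr17:56717612-56717791 (plus strand) and chr11:120098784-120098963 (plus strand). The Ndufv1 window held no match to any of the 6 motifs. The Cox8a and Uqcrh windows each held an ETS match on the other strand, and the Sdhb window held an ETS match just after the start. The Atp5g1 window held 4 CCAAT matches, of which a pair overlaps, and the Ndufaf8 window held a YY1 match together with an ETS match.

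RefSeq promoters, 250 bases before to 50 bases after the start, were matched for 66 of the 79 genes with a site (71 promoters). An NRF1 match was present in 26.8% of them, against 6.75% of all 19370 protein-coding autosomal RefSeq promoters and 11.2% of the 10377 promoters whose start lies in a site. An ETS match was present in 23.9%, against 12.1% and 19.5% in these sets, and a YY1 match in 9.86%, against 1.89% and 3.17%. At least 1 of these 3 motifs was found in 50.7% of respiratory chain promoters, 18.8% of all promoters and 30.6% of promoters whose start lies in a site. In 71 promoters of cytoplasmic ribosomal protein genes this share was 50.7% too, with NRF1 matches in 8.45%, ETS matches in 36.6% and YY1 matches in 8.45%. The share with any of the 3 was therefore not particular to the respiratory chain. Sp/KLF matches (45.1%) were less frequent than in promoters whose start lies in a site (69.1%), NF-Y matches (42.3%) were close to that set (38.5%), and TATA matches (7.04%) were close to it as well (6.15%). These shares describe letters in a window and not bound factors, and no test was made between the sets.

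**Figure D1:**
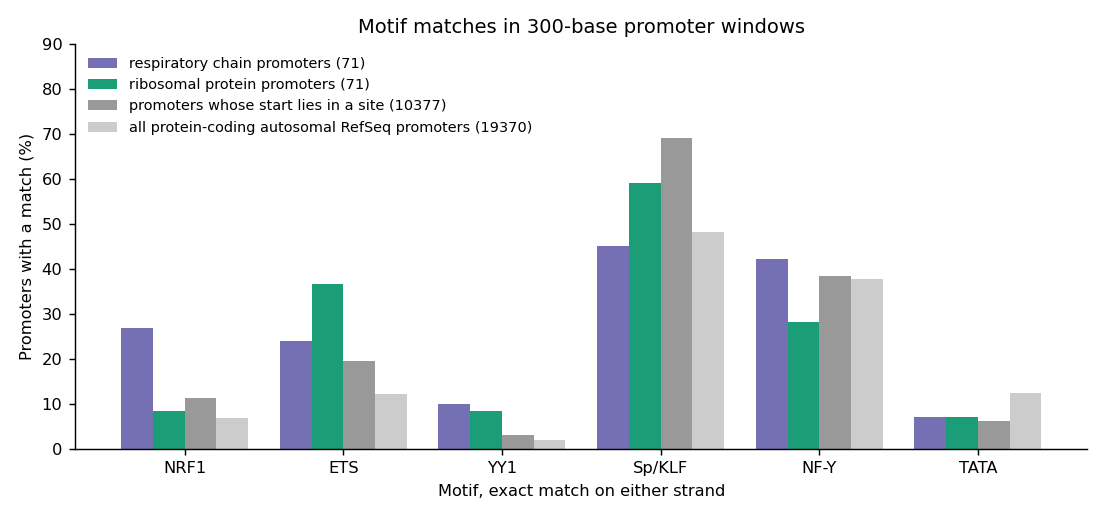
Percent of promoters with an exact match on either strand to each of 6 motifs, in 71 respiratory chain promoters, 71 ribosomal protein promoters, 10377 promoters whose start lies in a site and all 19370 protein-coding autosomal RefSeq promoters. NRF1 matches stand at 26.8% in respiratory chain promoters and at 8.45% in ribosomal protein promoters, and ETS matches at 23.9% and 36.6%. YY1 matches stand at 9.86% and 8.45%.

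The motifs were spread unevenly over the complexes. NRF1 matches occurred in 7 of 29 complex I promoters, 2 of 3 complex II promoters, 1 of 5 complex III promoters, 1 of 10 complex IV promoters and 6 of 17 complex V promoters. The complex V genes with an NRF1 match were Atp5c1, Atp5g2, Atp5g3, Atp5h, Atp5k and Atp5o. ETS matches occurred in 3 of 29 complex I promoters (Ndufb6, Ndufb7 and Ndufs3) and in 5 of 17 complex V promoters (Atp5e, Atp5h, Atp5j, Atp5k and Atp5l). YY1 matches occurred in 4 complex I promoters (Ndufa9, Ndufc1, Ndufs4 and Ndufs6), in 2 complex V promoters (Atp5j and Atp5j2) and at Ndufaf8. With this few promoters per complex, the shares are descriptions of these genes.

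Of the 87 sites, 78 held a TSS and 75 had their centre within 250 bp of it. The other 9 sites lay near a TSS without holding it: 4 overlapped an exon (Ndufa13, Uqcrc1, Cox6c and Atp5g2), 3 lay in an intron (among them those of Ndufv3 and Cox6a1) and 2 lay upstream of the gene (Ndufa13 and Ndufaf4). Another protein-coding gene on the opposite strand also had a TSS within 1 kb of 34 of the 87 sites (39.1%), against 8.23% of the 15583 protein-coding autosomal promoter sites. At such a site the value cannot be assigned to either gene, even where only the respiratory chain gene is named below. Examples are Sdhd with Timm8b, which encodes a chaperone of mitochondrial import, Ndufs6 with Mrpl36, a mitochondrial ribosomal protein, Ndufa7 with Rps28, a cytoplasmic ribosomal protein, and Atp5j with Gabpa, the ETS subunit of GABP itself. The median log2 fold change between genotypes was 0.12 for members with such a partner and 0.14 for members without.

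The table as a whole set the limits of the comparison. Normalized totals lay between 8008069 and 8516263, and the number of reads in sites, recovered from the steps of the values, was about 9430000 and 11400000 in the WT libraries and 7830000 and 5680000 in the KO libraries. The Hat1 promoter site, at chr2:71388852-71389931, had 390, 384, 438 and 368 normalized counts (limma, log2 fold change 0.05, SE 0.14, unadjusted p = 0.722), so it gave no check of the genotype labels. All 10 fibroblast markers examined (among them Col1a1, Pdgfra and Vim) had a promoter site. The 12 markers of other cells were represented by 8 sites at 7 genes, with sums between 402 and 612 normalized counts per library. The 13 fibroblast marker sites summed to 3158 to 3804. The median of the site means was 38.75 against 216.25. The sets were not fully apart: Cd68, a blood marker, had 195, 157, 215 and 152, above the fibroblast marker Thy1 (35, 150, 61 and 69). The exact permutation test of 2 against 2 libraries cannot go below p = 0.333.

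Member sites had signal in all 4 libraries, but as merged peaks they were picked for having signal, and genes without a site are not covered. No member site was at 0 in any library, and single values ranged from 16 normalized counts at an exonic site of Uqcrc1 to 768 at Atp5g1. Per kb of site, so that sites of different length can be compared, the median over members was 277 normalized counts, against 237 over protein-coding autosomal promoter sites, 342 over 76 sites at cytoplasmic ribosomal protein genes and 119 over all sites. The members had a median length of 865 bp and a median GC content of 58.3%, against 749 bp and 61.0% for promoter sites and 440 bp and 48.1% for all sites. The ratio of observed to expected CpG had a median of 0.736 in members and 0.234 in all sites.

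**Figure D2:**
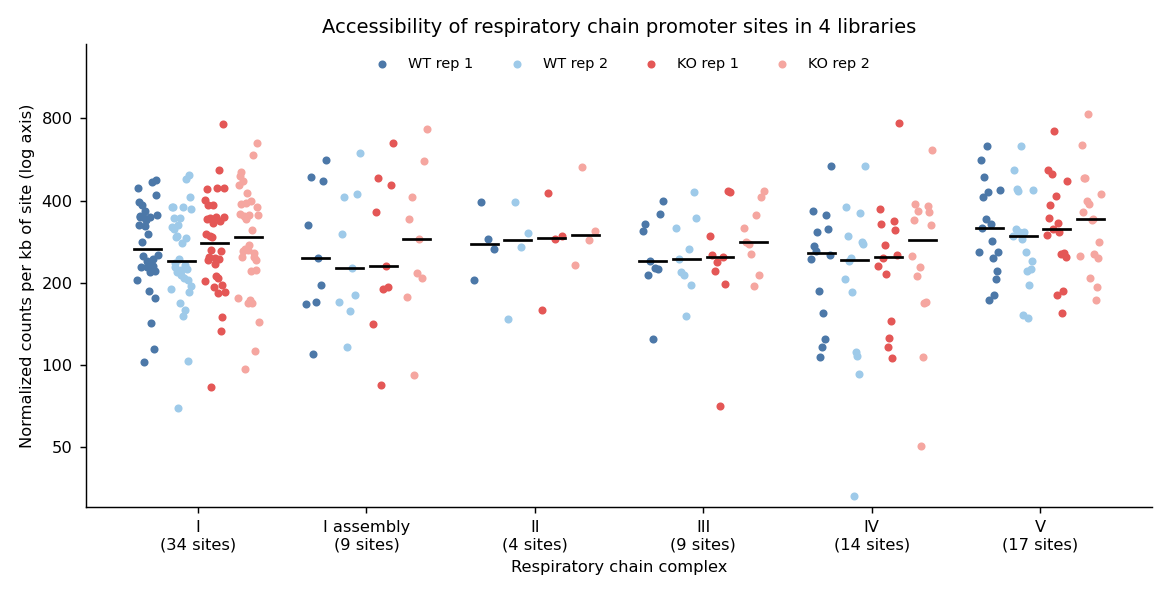
Normalized counts per kb of site (log axis) for every member site in each of the 4 libraries, by complex, with black lines at the medians. The levels span 76.5 (Cox6b2) to 703 (Atp5g1) as means over libraries, and the 4 libraries overlap in every complex.

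The levels differed widely within each complex, and the mean per kb over the 4 libraries is given here. In complex I, Ndufv1, the NADH-binding core subunit, had the highest level (595) and Ndufa9, an accessory subunit, the lowest (87.8). In complex II, Sdhb, the iron-sulfur subunit, stood at 436 and Sdha, the flavoprotein that oxidizes succinate, at 186. In complex III, Uqcrh, the hinge protein, whose site is shared with Lrrc41, stood at 408, and an exonic site of Uqcrc1, a core subunit, at 135. In complex IV, Cox8a reached 613 and Cox6b2, the testis isoform of Cox6b, 76.5. In complex V, Atp5g1, which encodes the c subunit of the membrane ring, reached 703 and Atp5k, a subunit of the membrane part, 164. Among assembly factors, Ndufaf8 stood at 636 and the upstream site of Ndufaf4 at 100.4. The sites with the highest level in each of the 5 complexes lay between the 85.2 and the 98.9 percentile of promoter sites.

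Of the isoforms of complex IV that are restricted to certain tissues, 5 had no site and 2 had a site with a low level. Cox4i2 (lung), Cox6a2 and Cox8b (heart and muscle) and Cox7b2 and Cox8c (testis) had no site within 1 kb of a TSS, the nearest lying 11.2, 1.86, 2.75, 70.4 and 20.5 kb away. Ndufa4l2, the paralog of Ndufa4 that hypoxia induces, had its nearest site at 1.71 kb. Among the ubiquitous paralogs, Cox4i1 had 257, 217, 243 and 263 normalized counts and Cox6a1, at its TSS, had 258, 207, 231 and 307. Cox7a2 had 313, 319, 298 and 340 normalized counts, and Ndufa4, since reassigned to complex IV, had 318, 259, 282 and 296. Cox7a1, the heart and muscle form, did have a site, with 54, 40, 46 and 74 normalized counts. These were below every value of Cox7a2, and the level per kb was 123 against 358.

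Cox6b2 was the member with the lowest level per kb and the largest SE of the fold change. It had 68, 21, 74 and 32 normalized counts, high in WT replicate 1 and KO replicate 1 and low in the other two libraries, so the genotypes overlapped. Its ubiquitous paralog Cox6b1 had 122, 121, 140 and 149. The log2 fold change of Cox6b2 was 0.35 with an SE of 0.67, and its 95% interval ran from -1.26 to 1.97.

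Not every gene without a site was tissue-restricted. Among genes of complexes that every respiring cell uses, Ndufa6, Ndufb5, Ndufs7 and Ndufs8 of complex I had their nearest site 6.76, 26.1, 3.18 and 4.99 kb away, and Atp5f1, which encodes the b subunit of ATP synthase, 54.1 kb away. Ndufs7 and Ndufs8 encode core iron-sulfur subunits. Values for these 5 promoters were not analysed here, and nothing about their accessibility follows from the table.

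To ask whether the loss of HAT1 altered accessibility at these promoters, KO was compared with WT at each site with limma on log2(value + 1), fitted over all 82325 sites. A site was called where it passed both a p of 0.01, before adjustment, and a log2 fold change of 1 in size. No member site was called, and the rule called 0.373% of all sites and 0.231% of promoter sites. No site in the table had an adjusted limma p under 0.05 (Benjamini-Hochberg), and 2579 sites had an unadjusted p under 0.05. The fold changes of members were small, from -0.43 to 0.53 on the log2 scale, with a median SE of 0.19. No member lay in a HAT1-dependent accessibility domain (HAD, a run of 25-site windows with a mean log2 fold change under -0.58). Of the 82325 sites, 3126 lay in 1 of 170 HADs. The share over promoter sites is not given, so no trait of the members is read from this. The means of the windows centred on members ran from -0.31 to 0.33.

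**Figure D3:**
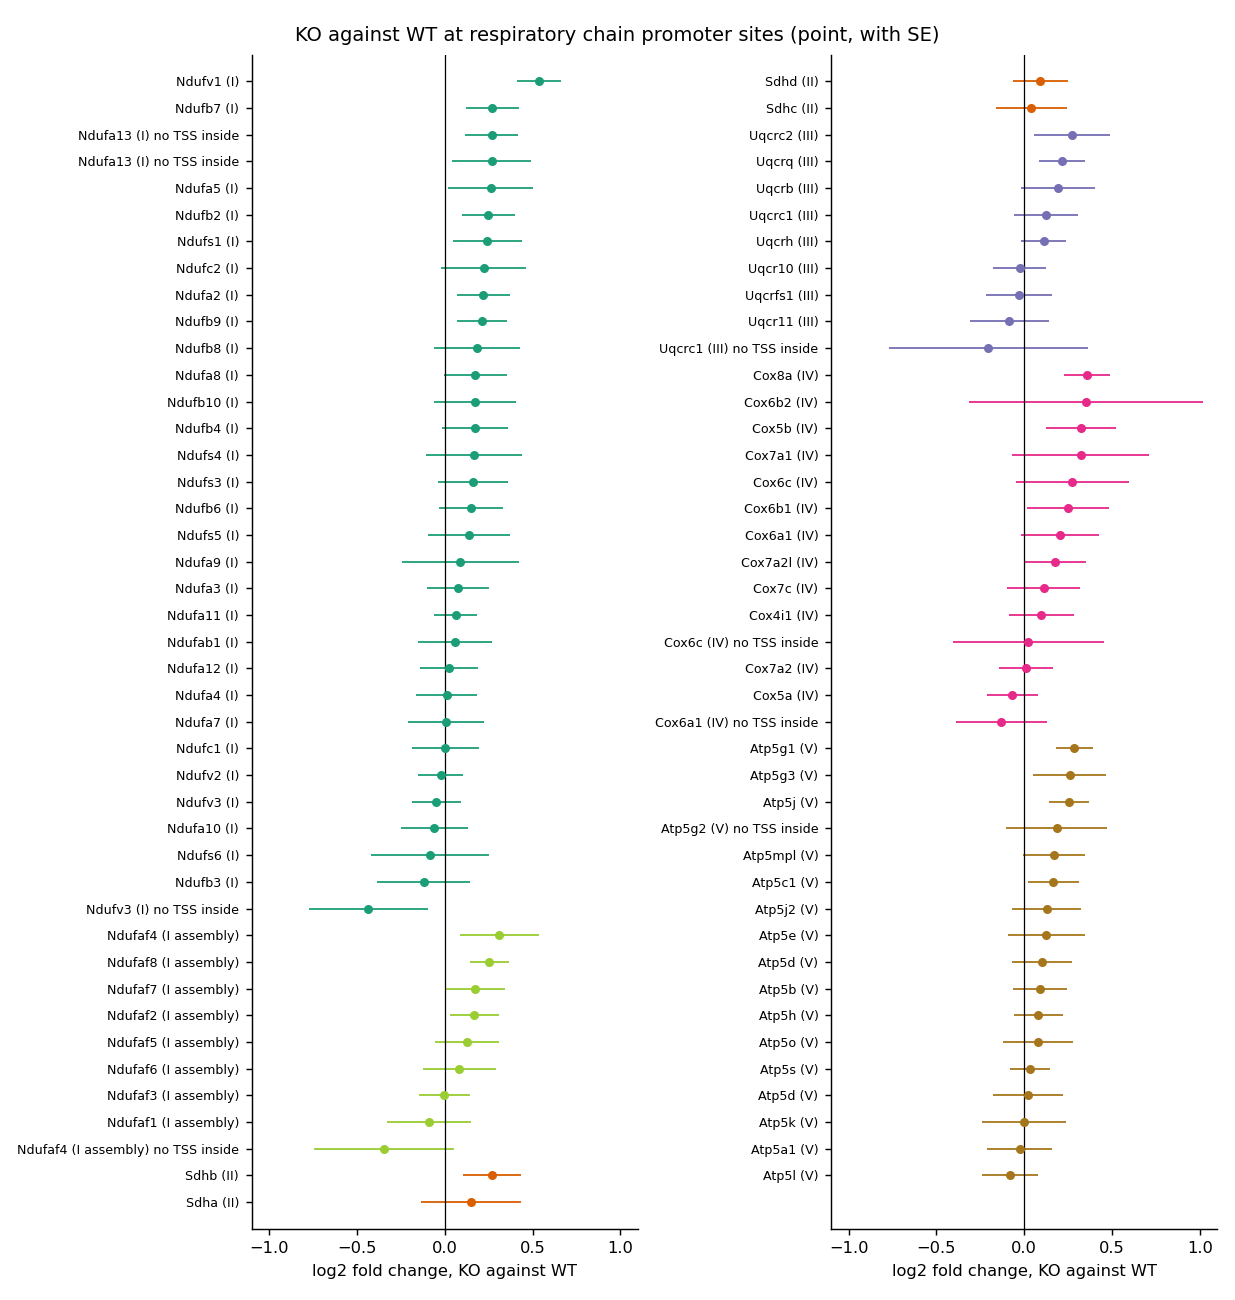
Log2 fold change of KO against WT on the log2(value + 1) scale (point) with its SE (bar) at the member sites, coloured by complex, with 1 gene of complex I not shown. No point reaches an absolute log2 fold change of 1, and Ndufv1 at 0.53 and an intronic site of Ndufv3 at -0.43 are the extremes.

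An unadjusted limma p under 0.05 was found at 3 of 87 members (3.45%), against 3.13% of all sites and 3.57% of promoter sites, so the members' share was close to the background. The 3 sites were those of Ndufv1, Cox8a and Atp5g1, which were also the sites with the highest level per kb in complexes I, IV and V. Each was higher in KO, which held for 1.54% of all sites and 2.19% of promoter sites at the same threshold.

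Ndufv1 encodes the subunit of complex I that binds NADH and FMN. Its site, at chr19:4012461-4013296 (mm10) and holding the TSS, had 397 and 414 normalized counts in WT and 636 and 543 in KO, and both KO values were above both WT values. The log2 fold change was 0.53 (limma, SE 0.12, unadjusted p = 0.005, adjusted p = 1), with a 95% interval from 0.23 to 0.84.

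Cox8a encodes the ubiquitous form of a small membrane subunit of complex IV. Its site, at chr19:7217166-7218111 and holding the TSS, had 507 and 506 normalized counts in WT and 726 and 579 in KO. KO replicate 1 was the higher of the KO libraries at both Ndufv1 and Cox8a. The log2 fold change of Cox8a was 0.36 (limma, SE 0.13, unadjusted p = 0.034, adjusted p = 1).

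Both of these sites are on chromosome 19, where all sites together were higher in KO replicate 1. The median over the 2573 sites of chromosome 19 differed from WT by 0.47 (log2) in KO replicate 1, and by -0.03 in the other KO library. With each library centred on its own median per chromosome, the log2 fold change was 0.32 at Ndufv1 (limma, SE 0.13, unadjusted p = 0.040) and 0.14 at Cox8a (limma, SE 0.10, unadjusted p = 0.192). The third member on this chromosome, Ndufb8, had 161, 131, 183 and 149 normalized counts, with overlapping genotypes, and its log2 fold change went from 0.18 to -0.03 on centring. Chromosome 15 had a median difference from WT of 0.23 in KO replicate 1 and of 0.03 in the other KO library, and it holds 4 members at Ndufb9, Cox6c (2 sites) and Atp5g2. Of these, Ndufb9 had 321, 347, 410 and 365 normalized counts, without overlap (log2 fold change 0.21, SE 0.14), and the other three sites overlapped between genotypes. Chromosome 14, with a median log2 fold change of -0.18, holds no gene of the chain by this rule.

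**Figure D4:**
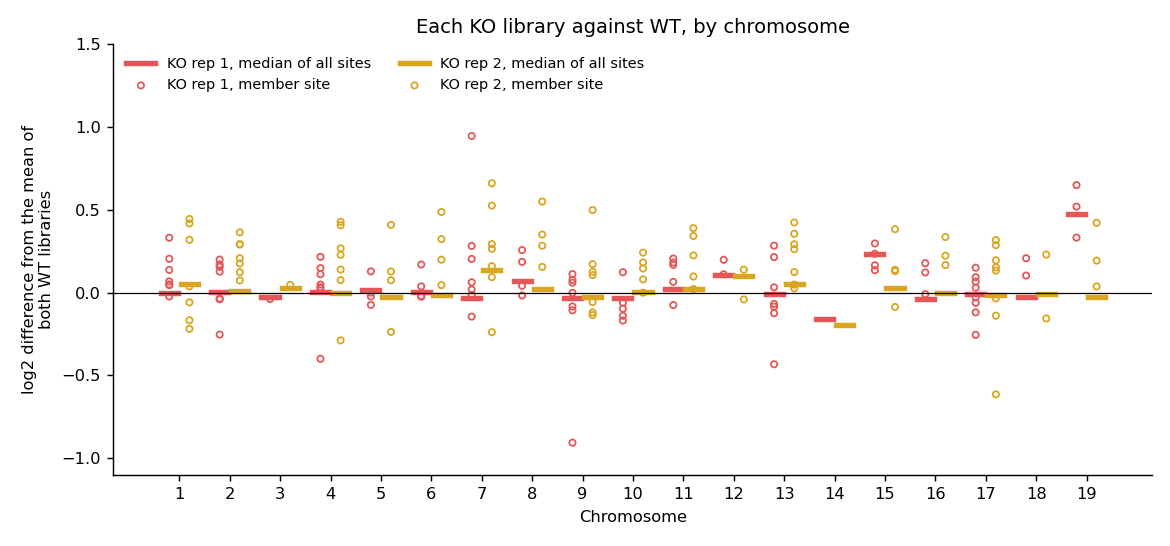
Log2 difference of each KO library from the mean of both WT libraries, as the median of all sites of each autosome (bars) and at each member site (circles). On chromosome 19 the median of KO replicate 1 is at 0.47 and that of KO replicate 2 at -0.03, and all 3 members there are higher in KO replicate 1 than in KO replicate 2.

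Atp5g1 encodes a copy of the c subunit, which forms the rotating ring of ATP synthase. Its site, at chr11:96075334-96076260 and holding the TSS, had 586 and 587 normalized counts in WT and 665 and 768 in KO, and the genotypes did not overlap. The log2 fold change was 0.28 (limma, SE 0.10, unadjusted p = 0.033, adjusted p = 1), and 0.27 on centring per chromosome. Its paralogs encode the same mature protein. Atp5g3 had 184, 163, 193 and 223 normalized counts, again without overlap (log2 fold change 0.26, SE 0.21), and an exonic site of Atp5g2 had 143, 96, 138 and 129 with overlapping genotypes.

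A small shift toward higher values in KO ran over the members as a set. Both KO values were above both WT values at 29 of 87 sites (33.3%), against 14.6% of all sites, 19.6% of promoter sites and 46.1% of ribosomal protein promoter sites. Both KO values were below both WT values at 4 sites (4.6%), against 14.3%, 15.0% and 1.32%. The 4 sites were the TSS site and the intronic site of Ndufv3, the upstream site of Ndufaf4 and the site of Atp5l. The log2 fold change was above 0 at 69 members (79.3%), against 50.7% of all sites and 53.3% of promoter sites. The counts followed the scaling. With equal library totals, 20 sites were higher and 7 lower in KO without overlap, and with quantile normalization 15 and 9. The shares of promoter sites under these scalings are not given, so these counts have no background here. The median log2 fold change of promoter sites fell too, from 0.02 to -0.05 with equal totals and -0.06 with quantile normalization. The share above 0 in ribosomal protein promoters was 90.8%, so the direction was not particular to the respiratory chain.

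The median log2 fold change over members was 0.13, against 0.01 over all sites, 0.02 over promoter sites and 0.14 over ribosomal protein promoters. With equal totals the medians were 0.06 for members, -0.05 for promoter sites and -0.06 for all sites. The difference between lines of a genotype was of the same size: replicate 1 minus replicate 2 had a median of 0.11 in WT and -0.11 in KO. The median over members was 0.06 for KO replicate 1 and 0.17 for KO replicate 2 against WT. It was 0.06 without WT replicate 2 or without KO replicate 2. Over promoter sites the median was -0.03 without WT replicate 2 and 0.02 without KO replicate 2, so members stayed above promoter sites in both.

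The shift was larger in KO replicate 2 than in KO replicate 1. KO replicate 1 was above both WT libraries at 44.8% of members, against 35.9% of promoter sites and 34.0% of all sites. For KO replicate 2 these shares were 67.8%, 39.3% and 34.7%. KO replicate 2 was the highest of the 4 libraries at 51 members (58.6%), against 32.4% of promoter sites and 28.0% of all sites. WT replicate 2 was the lowest at 45 members (51.7%), against 29.7% and 21.9%. KO replicate 2 was also the shallowest library and WT replicate 2 the deepest, and the part of depth in the shift was not tested. In ribosomal protein promoters KO replicate 2 was the highest at 73.7% of sites. In bulk libraries, a larger share of cells with an open site and a more open site in each cell cannot be told apart.

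**Figure D5:**
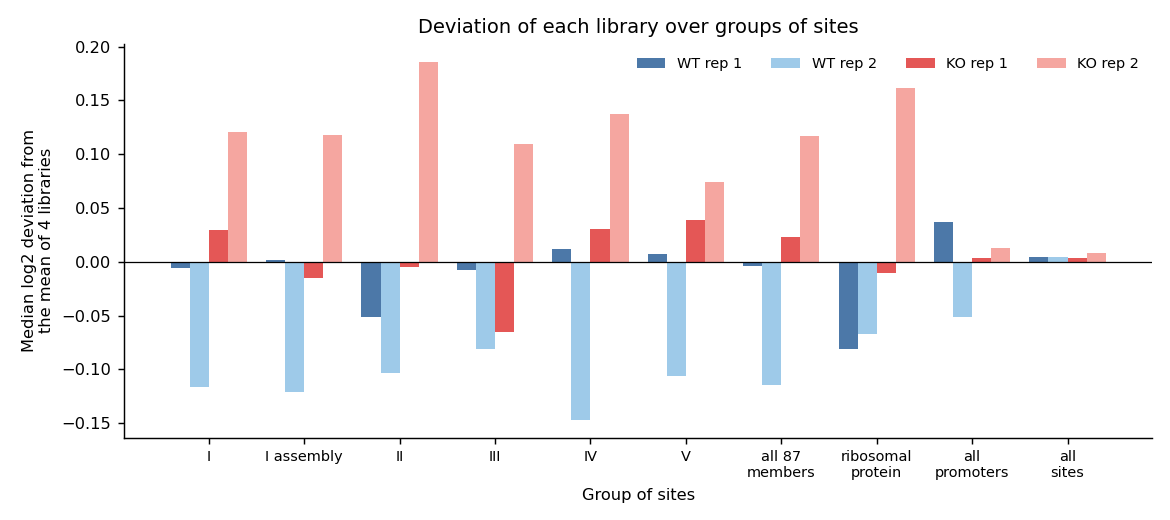
Median log2 deviation of each library from the mean of the 4 libraries, over the sites of each complex, all 87 members, ribosomal protein promoters, all protein-coding autosomal promoter sites and all sites. KO replicate 2 is above 0 and WT replicate 2 below 0 in every complex, whereas KO replicate 1 differs in sign between complexes.

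By complex, the differences were alike in size, and none was tested against another. In complex I subunits, the summed level was 8205 and 7680 normalized counts in the WT libraries and 8578 and 9006 in the KO libraries. The KO libraries were both above the WT libraries, at 7942 ± 371 (SD, n = 2) in WT and 8792 ± 303 (SD, n = 2) in KO, and with equal totals the difference of 849.5 was 449. The median log2 fold change was 0.16, and 13 of 34 sites were higher and 2 lower in KO without overlap, where 19.6% and 15.0% of promoter sites were (14.6% and 14.3% of all sites). The counts of the other complexes below are to be read against the same shares. The 13 higher sites included the core subunits Ndufs1 (220, 217, 229 and 292) and Ndufs3 (170, 166, 193 and 183), each with a limma p above 0.05. The lowest fold change, at the intronic site of Ndufv3 (chr17:31520656-31520969), came from 79 and 61 normalized counts in WT and 58 and 45 in KO. Its log2 fold change was -0.43 (limma, SE 0.34, unadjusted p = 0.246), and the TSS site of the same gene had 336, 351, 329 and 335.

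In the complex I assembly factors, the summed level was 2436 and 2288 normalized counts in WT and 2504 and 2684 in KO, with a median log2 fold change of 0.13. The sites of Ndufaf2, Ndufaf4 (at its TSS) and Ndufaf8 were higher in KO without overlap. The 2 sites of Ndufaf4 lay on opposite sides of 0: the TSS site had 145, 134, 162 and 185 normalized counts (log2 fold change 0.31, SE 0.22), and the upstream site had 31, 33, 24 and 26 (log2 fold change -0.34, SE 0.40). Ndufaf8, next to Tepsin on the opposite strand, had 498, 530, 577 and 651 normalized counts (limma, log2 fold change 0.25, SE 0.11, unadjusted p = 0.060).

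In complex II, which also belongs to the citric acid cycle, the summed level was 954, 923, 963 and 1128 normalized counts, so that KO replicate 2 stood apart from the other libraries. Sdhb had 301 normalized counts in both WT libraries and 325 and 405 in KO (log2 fold change 0.27, SE 0.17), without overlap. Sdha had 200, 143, 155 and 227, Sdhc, a membrane anchor, had 184, 171, 183 and 182, and Sdhd, the other anchor, had 269, 308, 300 and 314. All 3 overlapped between genotypes. The interval for Sdhc, the smallest of the 4 fold changes, ran from -0.45 to 0.53.

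In complex III, the summed level was 2373, 2350, 2422 and 2664 normalized counts, again highest in KO replicate 2. The median log2 fold change of 0.11 became -0.05 with quantile normalization, which moved the median over promoter sites from 0.02 to -0.06. Only Uqcrb (180, 184, 186 and 233) and Uqcrq (426, 367, 456 and 462) were higher in KO without overlap. Uqcrc2, a core subunit, had 242, 283, 265 and 377 normalized counts and overlapped, with the highest log2 fold change of the complex, 0.27 (SE 0.22). The Rieske iron-sulfur protein gene Uqcrfs1 had 241, 210, 212 and 229 (log2 fold change -0.03, SE 0.19). The lowest value was at the exonic site of Uqcrc1, with 28, 34, 16 and 44 normalized counts, the KO libraries lying on either side of both WT libraries.

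In complex IV, the summed level was 2791 and 2623 normalized counts in WT and 2997 and 3086 in KO, and the median log2 fold change of 0.19 was the highest of the complexes. Besides Cox8a, the sites of Cox5b (174, 189, 209 and 247) and Cox6b1 were higher in KO without overlap, with limma p-values above 0.05. Cox5a, the partner subunit of Cox5b, had 331, 344, 337 and 307 normalized counts (log2 fold change -0.07, SE 0.15). Cox6c had 91, 63, 85 and 99 at its TSS and 25, 24, 27 and 23 at its exonic site. The intronic site of Cox6a1 had the lowest log2 fold change of the complex, -0.13 (SE 0.26), with 122, 112, 115 and 99 normalized counts. Without WT replicate 2 the median over complex IV sites was 0.03, and that over promoter sites was -0.03.

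In complex V, the summed level was 4942 and 4702 normalized counts in WT and 5099 and 5432 in KO. The median log2 fold change of 0.10 became 0.01 with quantile normalization, where promoter sites had a median of -0.06. The sites of 7 genes were higher in KO without overlap: Atp5c1, Atp5g1, Atp5g3, Atp5h, Atp5j, Atp5j2 and Atp5mpl. The catalytic subunits differed little, with 248, 284, 285 and 238 normalized counts at Atp5a1 and 414, 380, 380 and 469 at Atp5b (log2 fold changes -0.03, SE 0.18, and 0.09, SE 0.15). Atp5j, whose site is shared with Gabpa, had 512, 467, 553 and 617 normalized counts (limma, log2 fold change 0.26, SE 0.12, unadjusted p = 0.066). Atp5l had 284, 270, 257 and 266, the only site of the complex lower in KO without overlap, with a log2 fold change of -0.08 (SE 0.16). Atp5k had 159, 131, 137 and 152 normalized counts, a log2 fold change of 0.00 with a 95% interval from -0.58 to 0.58.

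Genes that work with the chain were described in the same way, and none of the lists was tested against the members. Of 38 assembly factors outside the Nduf names, 35 had a site (39 sites), with a median log2 fold change of 0.15. None of these sites had an unadjusted limma p under 0.05, and 11 were higher and 1 lower in KO without overlap, where 19.6% and 15.0% of promoter sites were. Of 17 genes of electron carriers and their links, 14 had a site (20 sites, median 0.07). Cyc1 of complex III, counted here, had 302, 285, 310 and 209 normalized counts, with overlapping genotypes (log2 fold change -0.20, SE 0.22). Among these 20 sites 8 were higher and 2 lower without overlap, read against the same shares of promoter sites. A site of Coq8b, which acts in ubiquinone synthesis, had 229, 262, 311 and 379 normalized counts and was the only one of them under 0.05 (limma, log2 fold change 0.49, SE 0.18, unadjusted p = 0.034, adjusted p = 1).

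All 13 regulators of respiratory genes had a site (16 sites, median log2 fold change 0.08). Esrra, which encodes the nuclear receptor ERR alpha, had 492 and 512 normalized counts in WT and 745 and 680 in KO (limma, log2 fold change 0.50, SE 0.10, unadjusted p = 0.002, adjusted p = 1), and it is on chromosome 19 like Ndufv1. Ppargc1a, the coactivator PGC-1 alpha, had 107 and 114 in WT and 53 and 81 in KO, without overlap (limma, log2 fold change -0.74, SE 0.33, unadjusted p = 0.060). Nrf1 had 280, 279, 277 and 263 normalized counts (log2 fold change -0.05, SE 0.16), Tfam, the mitochondrial transcription factor, had 304, 290, 282 and 322, and Yy1 had 355, 404, 439 and 520 (limma, log2 fold change 0.33, SE 0.15, unadjusted p = 0.059). Among members that hold a TSS, the median log2 fold change was 0.14 at the 17 sites whose promoter has an NRF1 match and 0.11 at the 48 without, and 0.15 and 0.12 for an ETS match.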

How the data were processed

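ATAC-Seq was performed on 2 HAT1+/+ and 2 HAT1-/- imMEF lines. Per the submitters' processing notes and the study's methods, alignment of the read pairs to mm10 used BWA 0.7.12, peak calling MACS2 2.1.0 and the comparison of genotypes DESeq2. Read filters and the handling of the Tn5 offset were not given in the sources used here. The deposited values are of the unit score, since the authors scaled the counts over merged sites library by library and kept whole numbers only. The deposited table also holds the authors' own log2 fold changes and p-values, which were not used here.

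Differences were tested on log2(value + 1) with limma 3.58.1 (R 4.3.3, intensity trend, no block) over all sites without a filter on low values, so fold changes of low sites are understated. Because the values are not counts, no count model was fitted. Sites were called where the p was under 0.01 before adjustment and the log2 fold change was 1 or more in size, and p-values were adjusted over all sites (Benjamini-Hochberg). Windows of 25 sites with a mean under -0.58, no more than 1 Mb apart, were joined into HADs. Sites were assigned to genes by GENCODE transcripts on GRCm38, and promoters and motifs were taken from RefSeq GRCm38.p6, both with Python 3.11.15. Depth was estimated from the steps that scaling leaves in the low values and covers reads or fragments, which the sources do not tell apart. Replicates are separate lines, numbered in accession order.

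The members, the gene lists and the tests were chosen with earlier results of these data known. Named in full were, per complex, the sites with the highest and lowest level per kb and the highest and lowest fold change, every member with an unadjusted p under 0.05, every gene without a site, members on chromosomes with a median log2 fold change over 0.1 from 0 and the tissue-restricted isoforms with their paralogs. Other genes were named after their values were seen. Alternatives were a pseudocount of 8, a minimum mean of 10, equal totals, quantile normalization, centring per chromosome, no intensity trend, other definitions of a member and leaving out each library. The values of 1 member gene are counted in the totals but not reported here.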

Additional observations from a re-analysis of the deposited data

How the results depend on the processing

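No member site was called under any alternative, and the median log2 fold change over members stayed above 0 in all of them, between 0.06 and 0.18. Members higher in KO without overlap numbered 15 with quantile normalization, and 34 to 59 when a library was left out (57 without WT replicate 1, 59 without KO replicate 1). Members lower in KO without overlap numbered 7 with equal totals, 9 with quantile normalization and 2 with 1 site per gene. They numbered 5 to 16 when a library was left out (16 without WT replicate 2, 11 without KO replicate 1, 15 without KO replicate 2). Fewer libraries overlap less by construction. The shares of all sites and of promoter sites are not given for other scalings or with a library left out. No trait of the members is therefore read from these counts. Calls over all sites numbered 537 without the intensity trend, against 307, and 36 to 612 when a library was left out (71 without WT replicate 1, 36 without WT replicate 2, 612 without KO replicate 2), where a lone library was assumed to vary like the rest. With equal totals the difference of summed levels (KO minus WT) was 449 in complex I (849.5 as deposited) and 113 in its assembly factors (232.0). It was 59.4 in complex II (107.0), 64.4 in complex III (181.5), 197 in complex IV (334.5) and 202 in complex V (443.5). The cause was not tested. Of 174 values at the 29 named sites with all libraries kept, 18 moved by more than the SD and 11 changed sign. Of 116 with a library left out, 1 moved and 21 changed sign. Members with an unadjusted limma p under 0.05 numbered 1 with equal totals, 1 with quantile normalization and 0 without the trend. Over all 82325 sites these numbers were 2471, 2181 and 3086. No paired analysis was possible because the line names share a number across genotypes in only 1 case, WT replicate 1 with KO replicate 2, and a block needs at least 2 pairs. There were 2 lines per genotype and about 5680000 to 11400000 reads in sites per library. Differences as small as the median of the members could not be resolved at single sites, where the median SE was 0.19.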

Other observations

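The fibroblast marker Vim, which encodes the intermediate filament vimentin, had 759 and 810 normalized counts in WT and 977 and 919 in KO at its promoter site (limma, log2 fold change 0.27, SE 0.08, unadjusted p = 0.013, adjusted p = 1). It was the only one of 13 fibroblast marker sites with an unadjusted p under 0.05. Of the 8 sites at markers of other cells, 4 were lower in KO without overlap, 0 were higher, and the other 4 overlapped. Among promoter sites 15.0% were lower and 19.6% higher without overlap, and among all sites 14.3% and 14.6%. With 8 sites, of which 2 belong to the same gene, no trend of these markers is read from the count. The 4 lower sites were both sites of Syt1, a synaptic vesicle gene, and those of the cadherin genes Cdh5 (37, 49, 23 and 27 normalized counts, log2 fold change -0.75, SE 0.39) and Cdh1 (52, 41, 34 and 29, log2 fold change -0.54, SE 0.37). The Syt1 sites had 150, 110, 24 and 80 normalized counts (limma, log2 fold change -1.52, SE 0.57, unadjusted p = 0.036, adjusted p = 1) and 72, 41, 15 and 26 (limma, log2 fold change -1.41, SE 0.48, unadjusted p = 0.025, adjusted p = 1). Snap25, the other synaptic gene examined, had 41, 27, 26 and 53 (log2 fold change 0.16, SE 0.49), and Pecam1, Cd68 and Epcam had log2 fold changes of 0.44 (SE 0.50), 0.05 (SE 0.26) and -0.15 (SE 0.66). No site lay within 1 kb of a TSS of Ptprc, Myod1, Myog, Alb or Apoa1, which mark blood, muscle and liver cells.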
